A study of Saccharomyces cerevisiae with 2 samples.

Results

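The vacuolar proton ATPase (V-ATPase) was followed through 10 of its subunit genes, VMA1, VMA2, VMA4, VMA5, VMA6, VMA8, VMA10, VMA13, VPH1 and STV1, among 6592 named genes of a ribosome profiling table. The members were taken by gene name, and all 10 were found. Ribosome profiling counts the mRNA fragments that ribosomes protect, called footprints, so a value reflects mRNA level and translation together. Footprints came from 2 budding yeast cultures of the SK1 strain, 1 wild type and 1 carrying a deletion of GIM3, a subunit of the prefoldin chaperone that delivers actin and tubulin to the chaperonin CCT. Both cultures were grown in YEPD at 22 degrees C for 24 hours and in BYTA for 16 hours, and had then spent 4 hours in sporulation medium, which starts meiosis. Each genotype had 1 library, so there was no replicate error and no test between genotypes was possible. Intervals are 95% intervals that cover counting error only.

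The V-ATPase pumps protons into the vacuole, the Golgi and endosomes, using ATP. Its V1 sector sits in the cytosol and holds the catalytic head, the peripheral stalks and the rotor stalk, and its V0 sector lies in the membrane and holds the proton-carrying ring and subunit a. The acidity it makes drives vacuolar proteolysis and the storage of amino acids, metals and phosphate. In yeast the V1 and V0 sectors come apart when glucose is withdrawn and rejoin when it returns. Of the members, 7 encode V1 subunits (A, B, C, D, E, G and H, in the order VMA1, VMA2, VMA5, VMA8, VMA4, VMA10 and VMA13) and 3 encode V0 subunits (d, VMA6, and the alternative forms of a, VPH1 and STV1).

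Counted footprints numbered 40433177 for wild type and 27864644 for the deletion. Levels are given in RPM, reads per library total of 1000000, which are not divided by gene length. GIM3 was at 34.9 RPM in wild type and at 0.108 RPM, from 3 reads, in the library labelled gim3 deletion, a ratio of 325 (111 to 1576). The cultures differed in meiotic stage markers. Middle meiotic genes act in the divisions and in spore formation. Of 28 such genes, 26 were abundant enough to be compared. At least 2-fold higher in the deletion library were 24 of the 26, against 6.35% of all compared genes. AMA1 was the only 1 of the 26 that was lower there, at 389 RPM in wild type and 194 RPM in the deletion. The list summed to 4554 RPM in wild type and 36689 RPM in the deletion. All 18 early meiotic genes were within 2-fold, as were 4186 of all 4916 compared genes. The early list summed to 22235 and 21109.5 RPM. Only 3 of 11 budding and G1 genes were abundant enough to be compared, against 4916 of 6592 named genes. No early, middle or G1 marker was at 0 in either library. Cytosolic ribosomal protein genes had a median log2 ratio of -1.42. The part that these differences between the libraries have in the values below was not tested.

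All 10 V-ATPase members had a lower footprint level in the culture without GIM3. Direction alone does not set them apart, since 3172 of the 4916 genes abundant enough to be compared were also lower there. Together the 10 genes took 0.342% of all footprints in wild type (Wilson interval 0.340 to 0.344) and 0.174% in the deletion (0.173 to 0.176), a 1.96-fold lower share (1.94 to 1.98). Their median log2 ratio (deletion over wild type), computed after adding a pseudocount of 1 RPM, was -0.98, against -0.20 for the 4916 genes compared, those with a mean of at least 10 RPM. Of the members, 4 were at least 2-fold lower (VMA13, VMA5, VPH1 and VMA1), the other 6 lay within that limit, and 0 were higher by as much. Over all compared genes, 8.50% were at least 2-fold lower and 6.35% at least 2-fold higher. At a limit of 1.5-fold, 8 members were lower (all but STV1 and VMA6), against 22.6% of all genes. VMA4 and VMA2 lay just inside the 2-fold limit with log2 ratios of -0.98 and -0.97, and VMA1 and VPH1 just outside it with -1.02 and -1.03. After centring on the median compared gene the members past the limit were VMA13 and VMA5, against 5.21% of all genes. A culture with fewer cells that translate these mRNAs and one with fewer footprints per cell cannot be told apart in bulk libraries.

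**Figure D1:**
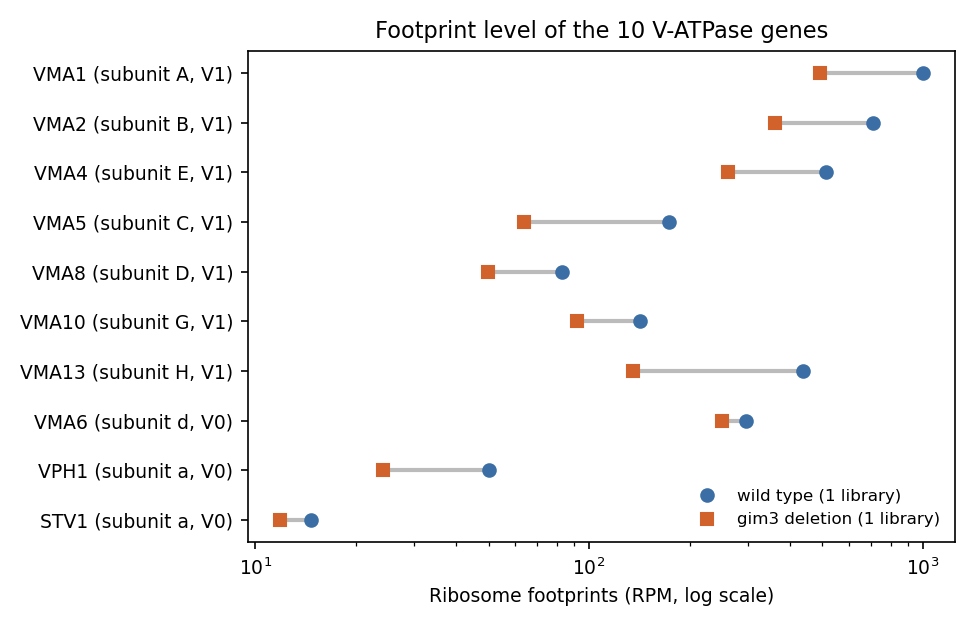
Footprint level in RPM (log axis) of each V-ATPase gene, with a circle for the wild-type library and a square for the gim3 deletion library, 1 library each. The square lies left of the circle for all 10 genes, with the longest gaps at VMA13 and VMA5 and the shortest at VMA6 and STV1.

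**Figure D2:**
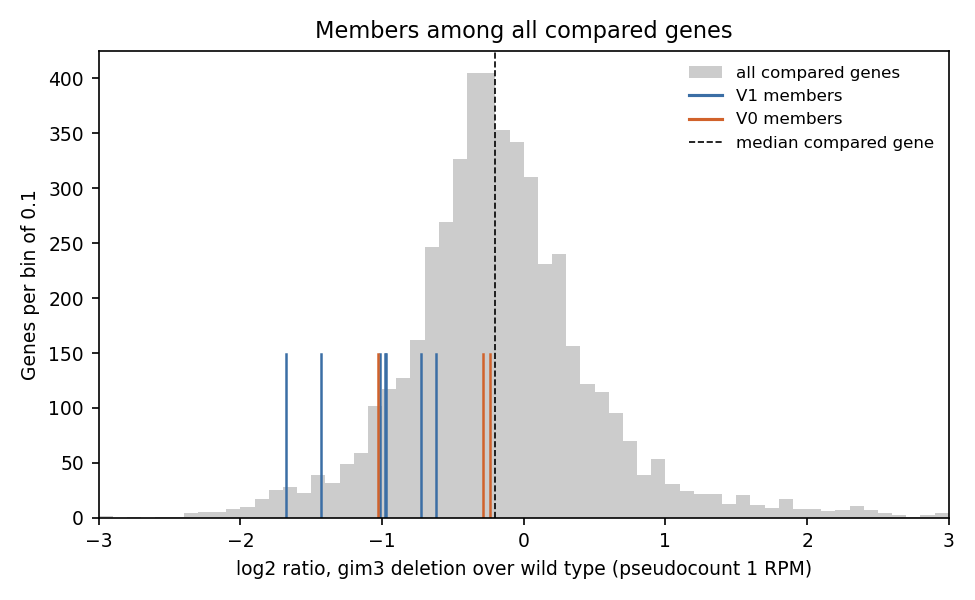
Histogram of log2 ratios (gim3 deletion over wild type) of the 4916 compared genes, with a line for each member. The V1 members run from -1.68 to -0.62, and the V0 members stand at -1.03, -0.29 and -0.24, all left of the median gene at -0.20.

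The catalytic head of V1 is built from VMA1, the A subunit that hydrolyses ATP, and VMA2, the B subunit that binds nucleotide without hydrolysing it. VMA1 was at 998 RPM in wild type and at 493 RPM in the deletion, 2.03-fold lower (1.99 to 2.07). VMA2 was at 709 and 361 RPM, 1.97-fold lower (1.92 to 2.01). The head subunits, which assemble in equal number, were thus lower by nearly the same factor. Of the reads on the pair, VMA1 took 58.5% in wild type (Wilson interval 58.1 to 58.8) and 57.7% in the deletion (57.1 to 58.4). The odds ratio of that division was 0.970, with an interval (0.942 to 0.9999) that ends just short of 1.

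The peripheral stalks, which hold the head still while the rotor turns, are made of VMA4 (E) and VMA10 (G). VMA4 was at 514 RPM in wild type and 260.1 RPM in the deletion, 1.98-fold lower (1.92 to 2.03). VMA10 was at 142 and 92.3 RPM, 1.54-fold lower (1.47 to 1.62), the smallest difference among the V1 members. E and G pair in the stalk, and their footprints differed between the libraries by unlike factors. VMA4 took 78.3% of the pair's reads in wild type (77.8 to 78.8) and 73.8% in the deletion (72.9 to 74.7), an odds ratio of 0.780 (0.739 to 0.824).

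The largest differences among the members were in VMA13 and VMA5. VMA13, the H subunit, which is needed for pump activity and keeps free V1 from hydrolysing ATP, was at 436 RPM in wild type and 136 RPM in the deletion. It was 3.21-fold lower (3.10 to 3.32), and 1.85% of compared genes had a ratio as low or lower. VMA5, the C subunit, which bridges the stalks to the membrane sector and is released when the pump comes apart, was at 174 and 63.7 RPM, 2.73-fold lower (2.59 to 2.87), at 3.32% of genes. VMA8, the D subunit of the central rotor stalk, was nearer to the median gene, at 83.2 and 49.8 RPM and 1.67-fold lower (1.57 to 1.78). Their intervals do not overlap each other, so the order of these 3 genes was not within counting error.

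The division of footprints inside V1, which does not depend on how the libraries are scaled, differed accordingly. VMA13 took 14.3% of the reads on the 7 V1 members in wild type (14.1 to 14.5) and 9.33% in the deletion (9.05 to 9.62). VMA5 took 5.69% in wild type (5.56 to 5.82) and 4.38% in the deletion (4.18 to 4.58). Both subunits thus had a smaller part of the V1 footprints in the deletion library, and the remaining members had a larger one. VMA10 went from 4.66% (4.54 to 4.78) to 6.34% (6.11 to 6.58) and VMA8 from 2.72% (2.63 to 2.81) to 3.42% (3.25 to 3.60). VMA1, VMA2 and VMA4 had odds ratios of 1.06, 1.09 and 1.08 for their shares of V1 reads.

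Among the V0 members, VMA6, the d subunit that couples the rotor stalk to the membrane ring, differed least. It was at 296 RPM in wild type and 251 RPM in the deletion, 1.18-fold lower (1.14 to 1.22), a log2 ratio of -0.24 that lies 0.03 below the median gene. After removal of a trend on gene length its log2 ratio was 0.03, so its direction depends on the processing. VPH1, the a subunit of the vacuolar pump, was at 50.3 and 24.1 RPM, 2.09-fold lower (1.91 to 2.28). STV1, the a subunit of the Golgi and endosomal pump, was the least abundant member, at 14.7 and 11.9 RPM and 1.24-fold lower (1.08 to 1.42). VPH1 therefore stood with the V1 head subunits, and VMA6 and STV1 stood near the median gene.

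VPH1 and STV1 are alternatives for the same place in the complex, so their balance was compared within each library. VPH1 had 2032 reads and took 77.4% of the reads on the pair in wild type (75.7 to 78.9). In the deletion it had 671 reads and took 67.0% (64.0 to 69.8). The odds ratio was 0.594 (0.504 to 0.699), and the intervals of the shares do not overlap. Per kb of gene, VPH1 footprints stood at 3.62 times those of STV1 in wild type and 2.15 times in the deletion. Set against VMA6, which is common to both forms of the pump, VPH1 took 14.5% of the pair's reads in wild type (14.0 to 15.1). In the deletion it took 8.77% (8.15 to 9.42). That difference depends on the reference, since VMA6 differed least of the members. VPH1, 2.09-fold lower, lay close to the V1 head subunits VMA1 and VMA2, 2.03-fold and 1.97-fold lower.

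Ordered from the lowest ratio, the members ran VMA13, VMA5, VPH1, VMA1, VMA4, VMA2, VMA8, VMA10, STV1 and VMA6. The intervals of neighbours in that order overlap between VPH1 and VMA1, VMA1 and VMA4, VMA4 and VMA2, VMA8 and VMA10, and STV1 and VMA6. They are apart for the other 4 neighbouring pairs. The median log2 ratio was -0.98 over the V1 members and -0.29 over the V0 members, a difference of -0.69. With only 3 V0 members that difference depends on which are counted, since without STV1 it was -0.35. Summed reads gave the V1 members a 2.10-fold lower share of all footprints (2.08 to 2.12) and the V0 members a 1.26-fold lower share (1.22 to 1.29). VMA6 holds most of the V0 reads.

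The subunits outside the 10 members ran the same way by sector, although the pattern was seen in these same libraries and was not tested. VMA7, the F subunit of the rotor stalk and the remaining V1 gene, was at 153 RPM in wild type and 74.6 RPM in the deletion, 2.05-fold lower (1.95 to 2.16). The proteolipids of the membrane ring were less different. VMA3, the main ring subunit c, was at 459 and 335 RPM, 1.37-fold lower (1.34 to 1.40), and VMA16, ring subunit c'', was at 128 and 91.1 RPM, 1.41-fold lower (1.34 to 1.48). VMA11, ring subunit c', was at 109 and 96.3 RPM, 1.13-fold lower (1.08 to 1.18). VMA9, subunit e, was at 68.4 and 65.2 RPM, with an interval of the ratio (0.897 to 1.01) that includes 1. Of these 4 genes, VMA3 and VMA16 stood below the median gene by log2 ratio, and VMA11 and VMA9 stood above it. All 3 V0 members stood below it. VOA1, an accessory protein of V0, was at 229 and 186 RPM, 1.23-fold lower (1.19 to 1.27). Counting these genes, all 8 V1 subunits had log2 ratios between -1.68 and -0.62, and the 6 V0 subunits other than VPH1 had log2 ratios between -0.49 and -0.07. By point values, only VPH1 of the 7 V0 subunits lay in the V1 range, and it was set apart after its value was seen. The sectors were not apart within counting error. The interval of VMA16 (1.34 to 1.48) overlaps that of the V1 subunit VMA10 (1.47 to 1.62). With all 15 subunits the V1 median minus the V0 median was -0.71.

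**Figure D3:**
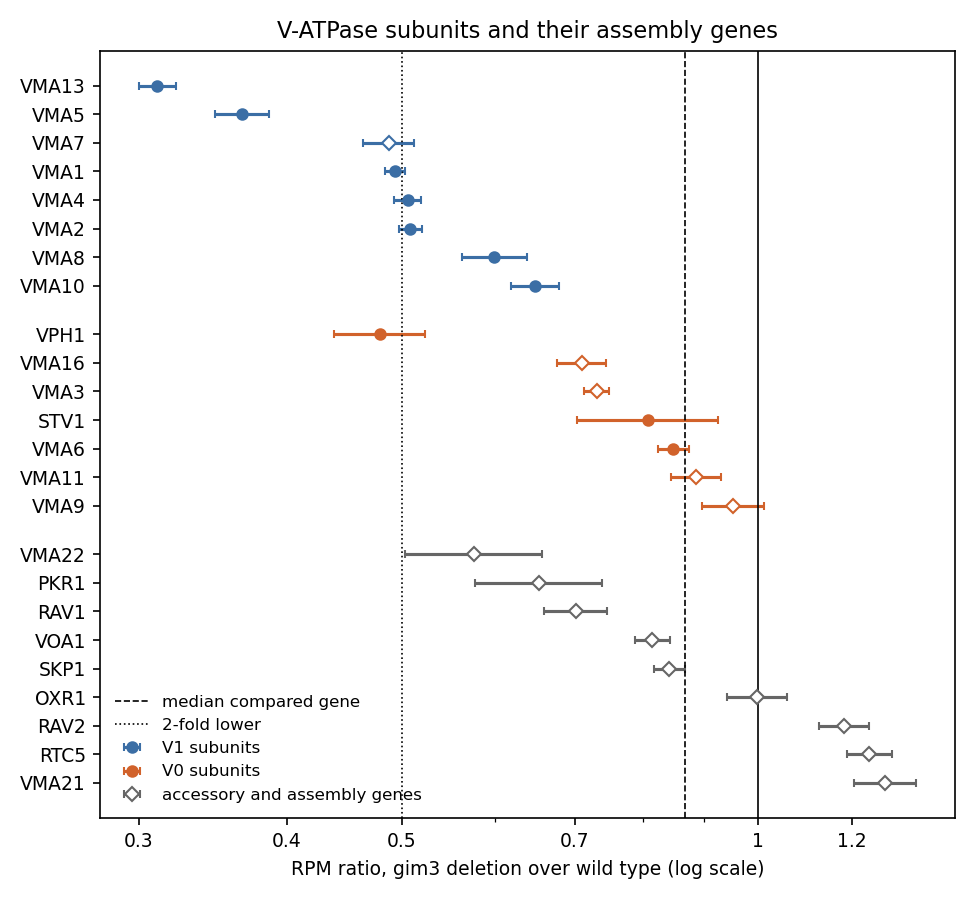
RPM ratio of gim3 deletion over wild type (log axis) with 95% counting intervals for V1 subunits, V0 subunits, and accessory and assembly genes. Filled circles are the 10 members and open diamonds are other genes. VMA13 is lowest at 0.311 and VMA21 highest at 1.28, and VPH1 is the V0 subunit that lies at the left among the V1 genes.

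Genes for assembling the pump lay on both sides of the median gene. Of 9 assembly genes 8 were compared, and their median log2 ratio was -0.13. All 8 were within 2-fold, as were 4186 of all 4916 compared genes. VMA21, the endoplasmic reticulum chaperone of V0 assembly, was 1.28-fold higher (1.21 to 1.36), at 57.5 RPM in wild type and 73.5 RPM in the deletion. Its partner VMA22 was at 19.6 and 11.3 RPM, 1.74-fold lower (1.52 to 1.98), and PKR1, another V0 assembly factor, at 20.8 and 13.6 RPM, 1.53-fold lower. VPH2, the third of the V0 assembly chaperones, also called VMA12, was below the filter at 7.39 and 3.91 RPM. Of the RAVE complex, which puts V1 back on V0, RAV1 was at 78.2 and 54.8 RPM, 1.43-fold lower (1.34 to 1.52), RAV2 at 90.3 and 106.7 RPM, 1.18-fold higher (1.13 to 1.24), and SKP1, which also serves ubiquitin ligases, at 281 and 236 RPM. OXR1, which promotes the separation of V1 from V0, was at 68.5 and 68.3 RPM, and RTC5, a relative of OXR1, was 1.24-fold higher (1.19 to 1.30), at 111 and 138 RPM. Of the 8 compared, 4 stood above the median gene and 4 below it.

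Levels were compared between genes only per length, as RPM per kb of the gene's span in the R64 annotation of the S288C strain. The median compared gene stood at 53.0 RPM per kb in wild type and 47.0 in the deletion. VMA4 had the highest level of the members in both libraries, 732 RPM per kb in wild type and 371 in the deletion. VMA2 followed in wild type, at 456 RPM per kb, and VMA6 in the deletion, at 241. VPH1, at 19.9 and 9.54 RPM per kb, and STV1, at 5.51 and 4.44, were the only members below the median gene in both libraries. The order of VMA4, VPH1 and STV1 was the same in both, while VMA13 went from place 4 of 10 to place 6.

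In the assembled complex the A, B, E and G subunits are present in 3 copies and C, D, H, d and a in 1 copy. Divided by those copies, the wild-type levels of the 7 V1 members ran from 93.6 RPM per kb per copy for VMA10 to 304 for VMA13, a 3.24-fold range. Before that division the range was 6.79-fold. In the deletion library they ran from 51.1 for VMA1 to 124 for VMA4, a 2.42-fold range. VMA13 stood 2.06 times above the V1 median per copy in wild type and 1.46 times above it in the deletion. VMA6 stood 1.93 times above it in wild type and 3.74 times in the deletion. The a subunits stood far below it: the V1 median was 7.40 times the VPH1 level in wild type and 6.77 times in the deletion, and 26.8 and 14.5 times the STV1 level. VMA6 footprints per kb were 11.2 times those of VPH1 and STV1 together in wild type and 17.3 times in the deletion. Gene spans include introns, and VMA10 is known to have one, so its level per kb is understated. VMA1 of S288C carries an intein, a stretch that is translated and then spliced out of the protein, and whether the strain used here carries it was not tested.

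**Figure D4:**
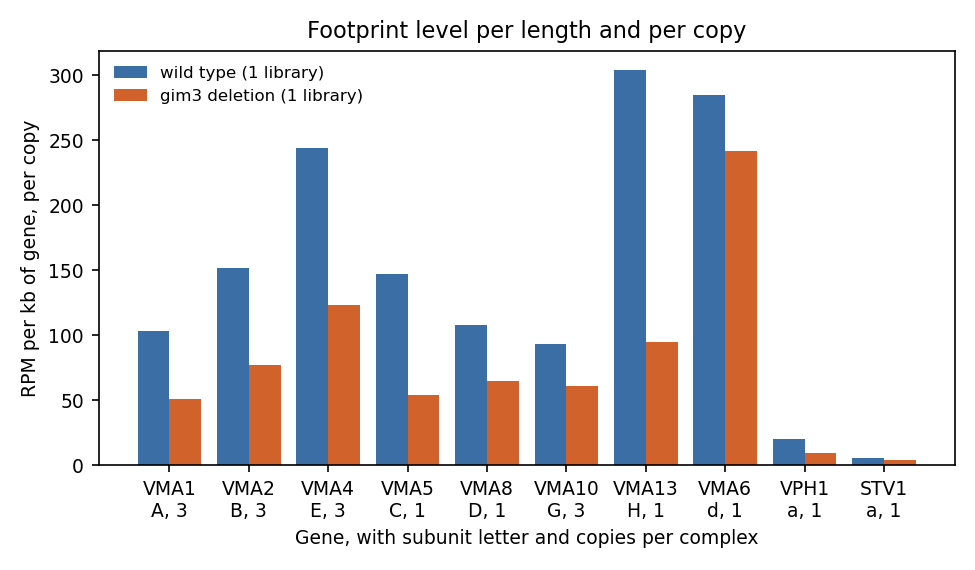
Footprint level per kb of gene and per copy of the subunit in the complex, for the wild-type and gim3 deletion libraries, 1 library each; the line under each gene gives the subunit letter and its copies. VMA13 and VMA6 are the highest bars in wild type, VMA6 is the highest in the deletion, and VPH1 and STV1 are the lowest in both.

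None of the members neighbour each other in the R64 gene order. Of the 20 genes next to them, 18 were compared, and the median log2 ratio of these neighbours was -0.10. At least 2-fold lower were 4 and at least 2-fold higher 1, against 8.50% and 6.35% of all compared genes. VMA13 lies beside GLN1, glutamine synthetase, which was at 520 RPM in wild type and 154 RPM in the deletion, with a log2 ratio of -1.75. VMA6 lies between YLR446W and RPL6B, the latter with a close second copy that may share its reads. These had log2 ratios of -1.07 and -1.35, and VMA6 had -0.24. Overlaps of members with other annotated genes were 0 in that annotation.

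Other genes of proton transport and of the vacuole were compared with the members as values of these 2 libraries, with no test of the differences between lists. PMA1, the plasma membrane proton pump and the cell's other main proton ATPase, was at 1066 RPM in wild type and 385 RPM in the deletion, 2.77-fold lower (2.71 to 2.83). It belonged to a list of 7 genes for proton pumps, exchangers and the PMA1 regulators PMP1 and PMP2. No other gene of that list was past 2-fold, and over all compared genes 8.50% were at least 2-fold lower. The list median was -0.47, and KHA1, a cation and proton exchanger, was highest with a log2 ratio of 0.54. Of 16 vacuolar transporters that run on the proton gradient, 15 were compared, around a median of -0.47. Against 8.50% of all compared genes, 4 of the 15 lay at least 2-fold lower, and 0 lay as much higher. The 4 were VBA1, a basic amino acid transporter, with the lowest log2 ratio of the list at -1.59, AVT4 and AVT1, amino acid transporters, at -1.44 and -1.04, and COT1, a zinc and cobalt transporter, at -1.05. VBA2 was highest at 0.49, and VBA3 was listed at 0 in both libraries. The transporters thus ranged from a value near that of VMA13 to values above the median gene.

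The polyphosphate polymerase of the vacuole (VTC), which uses the proton gradient to bring polyphosphate into the vacuole, stood on the other side. All 5 VTC genes were higher in the deletion library, with a median log2 ratio of 1.37. At least 2-fold higher were 3 of them, against 6.35% of all compared genes. VTC4, the catalytic subunit, was at 548 RPM in wild type and 1414 RPM in the deletion, 2.58-fold higher (2.54 to 2.62). VTC1 was at 135 and 359 RPM, 2.66-fold higher (2.57 to 2.75), and VTC5, a regulatory subunit, at 17.5 and 63.7 RPM, 3.64-fold higher (3.33 to 3.97). VTC3 was the lowest of the 5 with a log2 ratio of 0.81. No VTC gene had a ratio as low as any V-ATPase gene.

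Vacuolar hydrolases, the enzymes that work in the acid lumen, had a median log2 ratio of -0.17 over 12 genes. CPS1, a carboxypeptidase, at -1.94, was the only 1 at least 2-fold lower, against 8.50% of all compared genes. ATH1, a trehalase, was highest at 0.54. Genes for the synthesis and regulation of the vacuolar lipid PI(3,5)P2, which stabilises the pump, were all within 2-fold. So were 4186 of all 4916 compared genes. The 5 PI(3,5)P2 genes ran from VAC14 at -0.44 to ATG18 at 0.14, with a median of -0.31. Late Golgi residents, found where STV1 acts, had a median of -0.26 over 7 genes, from SEC7 at -0.79 to TLG1 at 0.03. STV1 at -0.29 lay close to that median, and both lay near the median compared gene at -0.20.

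The mitochondrial ATP synthase is a rotary ATPase built on the same plan as the V-ATPase. A list of 15 nuclear genes for it, among them INH1 for its inhibitor, is given beside the members. Its mitochondrially encoded subunits are not in that list. The median log2 ratio of the 15 genes was 0.31, against -0.98 for the members. Within 2-fold were 15 of 15, against 4186 of all 4916 compared genes. The 15 ran from ATP2, the beta subunit, at -0.25 to ATP15, the epsilon subunit, at 0.81. As a share of all footprints they took 0.684% in wild type (Wilson interval 0.682 to 0.687) and 0.756% in the deletion (0.752 to 0.759). The lowest of the 15, ATP2, had almost the same ratio as the highest of the V-ATPase members, VMA6.

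**Figure D5:**
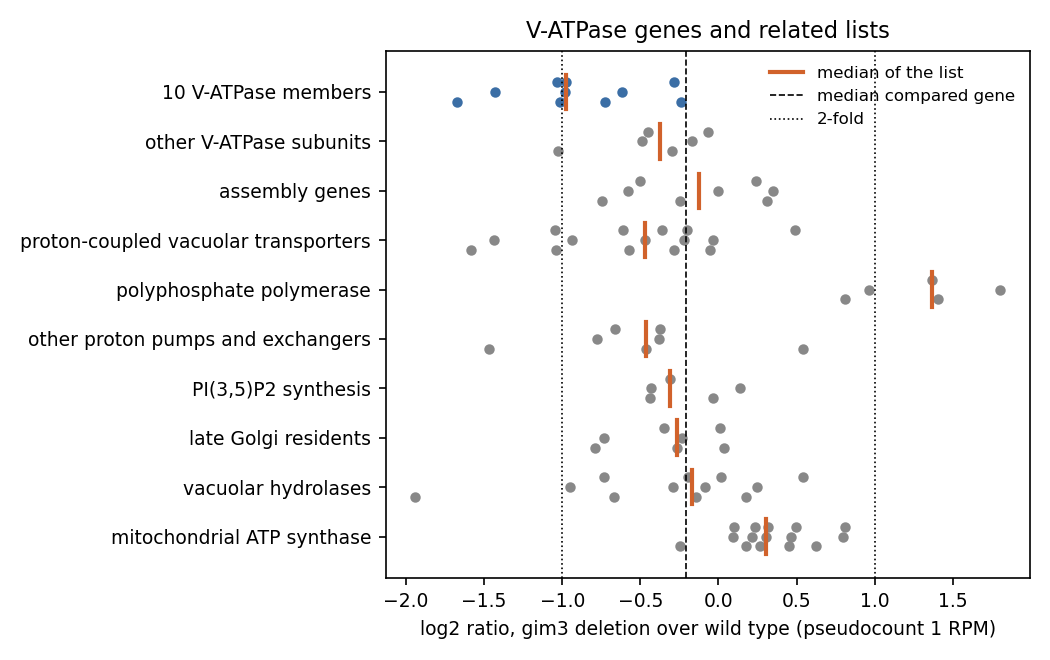
Log2 ratio (gim3 deletion over wild type) of each compared gene of the V-ATPase members and of related lists, with an orange bar at each list's median, a dashed line at the median compared gene (-0.20) and dotted lines at 2-fold. The member median is at -0.98, the VTC median at 1.37 and the mitochondrial ATP synthase median at 0.31.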

How the data were processed

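The data were 1 table with a value per gene for 2 libraries, 1 per genotype. The values the authors deposited are RPM, found from the values: each column sums to 1000000, and 100% of values are whole multiples of the column's smallest (tolerance 0.001 reads), which gives back the reads. Bowtie2, STAR and SAMtools were used, per the submitters' processing notes. The sources used here give no tool versions, no rule for multiply mapping reads, and no build or annotation. Of 6678 lines, 86 without a gene name (0.121% and 0.124% of reads) were left out of comparisons.

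Log2 ratios used a pseudocount of 1 RPM, which understates differences of low genes, and the comparison took genes whose 2 libraries averaged 10 RPM or more. Folds are RPM ratios with no pseudocount and exact (Clopper-Pearson) 95% intervals; shares have Wilson intervals and odds ratios exact conditional ones. Reads are not independent molecules, so intervals cover counting error only. With 1 library per genotype, a rule of 2-fold size replaced a test, and no model with replicates could be fitted. An exact binomial test on recovered reads compares the 2 libraries alone. Gene lengths and neighbours came from the R64 RefSeq table, matched for 4884 of 4916 compared genes. All members, V-ATPase subunits and assembly genes are named. Of other lists the extremes and members past 2-fold are named, and of the meiotic and G1 lists only counts, sums and AMA1 are given. AMA1, GLN1, YLR446W and RPL6B were chosen after their values were seen. The members and lists were chosen with earlier results of these data known. Alternatives covered pseudocount, filter, scaling, threshold, trends and mean. The work used matplotlib 3.10.9, statsmodels 0.14.6, SciPy 1.17.1, pandas 2.3.3 and numpy 2.4.6 under Python 3.11.15.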

Additional observations from a re-analysis of the deposited data

How the results depend on the processing

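All 10 members stayed lower in the deletion library under each of the 6 pseudocount and scaling alternatives run on single genes (60 of 60 values negative). These are the same 10 genes under 6 settings, so the values are not independent. Much of the count was also fixed in advance. A pseudocount cannot change the sign of a ratio. Library totals without cytosolic ribosomal protein genes lower every log2 ratio (shift of -0.012). Only centring, trimmed mean scaling and library totals without the middle meiotic list could have turned a value. VMA6 and STV1 were at -0.03 and -0.08 when centred, and at -0.06 and -0.13 with trimmed mean scaling. No counting interval was computed for these scaled values. Centring places 2458 of the 4916 compared genes below 0. After removal of a lowess trend on gene length 9 of 10 lay below the median gene, and VMA6 turned to 0.03. After removal of a trend on mean level all 10 were below it, with STV1 closest at -0.0096. The count of members at least 2-fold lower was 4 as reported and 2, VMA5 and VMA13, after centring on the median gene, with trimmed mean scaling, with library totals without the middle meiotic list, and after removing a lowess trend on mean level or on gene length. VPH1 was also no longer past 2-fold with a pseudocount of 5 RPM, which left 3 members, and it was below a filter at a mean of 50 RPM. The count was 8 at a threshold of 1.5-fold, where 22.6% of all genes passed. An exact binomial test on the recovered reads, which compares 2 libraries and not genotypes, separated 4333 of 4916 genes (2855 lower) and all 10 members, each lower. The member median of -0.98 was -0.77 when centred, -0.80 with the trimmed mean, -0.93 without the middle list, -0.82 and -0.75 after the trends on level and length, and -0.90 as a mean. The summed share, 1.96-fold lower, was 1.70-fold lower when centred, 1.74-fold with the trimmed mean and 1.90-fold without the middle list. The V1 minus V0 difference of -0.69 was -0.54 as a mean and -0.35 without STV1. The per-copy range within V1 in wild type, 3.24-fold, was 2.93-fold without VMA10. Centring changed the split over all genes from 312 higher and 418 lower to 408 higher and 256 lower. The trends, the binomial test, the set of all subunits and the removal of VMA10 were chosen after seeing the data. The VMA1 length without its insert was not run, since no protein sequence was used here. No paired analysis was possible because each genotype has 1 library. Depth limits STV1 most, with 926 reads over both libraries, against 54095 for VMA1.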
